A study of Vitis vinifera with 66 samples.

Results

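Berries of Vitis vinifera cv. Sauvignon Blanc from vines that had been waterlogged in spring (F) were compared with berries from vines that had not (C), at the last 4 of 6 sampling dates, T2 to T5. All 12 F libraries and all 12 C libraries of these dates were taken, 3 per treatment and date, which makes 24 of the 66 RNA-seq libraries of the series. The question was whether the flooding left a difference in berry transcripts that was shared over the dates and that 3 libraries against 3 could not show at a single one.

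The vines of every group were potted plants of one Sauvignon Blanc clone, grafted onto Kober 5 BB rootstock and kept under plastic tunnels. The F vines were flooded around budbreak and the C vines were not; both stood in the same tunnel, were irrigated and received neither drought nor heat in summer. T0 was the first sampling, before veraison; T1 followed at 9 days, T2 at 13, T3 at 15, T4 at 24 and T5, the harvest date, at 28 days after T0. The heatwave vines (H) and the flooded vines given the same heatwave (FH), which were droughted to 30% of field capacity and then warmed by 5 °C, are used here only to set the F over C difference beside FH over H and to build a ripening score. By the study's methods the berries of each vine were stored separately, so that the replicates should be vines, and the flooded vines shared one flooding episode.

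In grape, berries soften, take up sugar and lose acidity from veraison onwards, and most of the berry transcriptome is rearranged in the process. Auxin is known to hold ripening back, abscisic acid (ABA) to promote it, and ethylene rises briefly around its start, so that a berry slightly ahead of another differs from it in the genes of these hormones. Waterlogging deprives roots of oxygen, and ethylene and its precursor ACC (1-aminocyclopropane-1-carboxylic acid) are among the signals known to pass from flooded roots to shoots.

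The genes below carry the identifiers of the deposited table, and names were taken only from the study. Its text and supplementary tables gave 113 genes, arranged here in 17 lists, some of them with a group but no name. The qPCR primers designed by the study are shown, 5′ to 3′, for 3 of the genes described below, since they are the sequences that identify these transcripts. GOLS4 codes for a galactinol synthase, the first step of raffinose-family sugar synthesis, and GA20ox for a gibberellin 20-oxidase, which makes the precursors of active gibberellins.
GOLS4 (VIT_01s0127g00470) forward: aacgctgggatgttcgtctt
GOLS4 (VIT_01s0127g00470) reverse: acgagagggatgggcttgta
GA20ox (VIT_15s0048g01320) forward: tggcttcttccttgttgtgaatcat
GA20ox (VIT_15s0048g01320) reverse: ttgcttctcagagagtgacatgttg
qPCR reference gene (VIT_10s0003g00990) forward: gagaattaccgccgaatctatgtcc
qPCR reference gene (VIT_10s0003g00990) reverse: cagaattcccatccagcatatcctg

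The 24 libraries held between 17067512 and 24150978 counts assigned to genes (median 20958206; median 19778395 in C and 21264673 in F). One pair of libraries stood apart: T5 F replicates 1 and 2 differed by a chi-square of 1.92 per degree of freedom over genes, which is more than sampling noise, whereas the next closest pair of one group gave 15.5 and the most distant, T2 C replicates 1 and 2, 156. They were kept as 2 replicates, and the counts of genes called at T5 are given also with their counts summed, whereas the other values at T5 treat them as 2. Whether they came from separate vines was not tested. Whole berries were sequenced, so that fewer cells of a type and less RNA per cell cannot be told apart.

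No gene passed the test for a difference between F and C shared by T2 to T5. Of 18254 genes tested with time point as a block (edgeR quasi-likelihood test, at least 0.5 CPM, the count of a gene scaled to its library's total, in at least 3 libraries), 0 (0%) passed an adjusted p of 0.05 with a fold change of at least 1.5, and 0 passed the adjusted p alone, the smallest being 0.765. At an unadjusted p under 0.05 there were 1123 genes, or 6.15%, of which 647 (3.54%) were higher and 476 (2.61%) lower in F. The share was 4.60% with T5 F replicates 1 and 2 summed. With single dates left out it went from 2.48% (without T5) to 9.44% (without T3). DESeq2 on the same genes called 0 with the fold change and 15 with the adjusted p alone, all higher in F, with a smallest adjusted p of 0.0123. The median log2 fold change over all genes was 0.00106, and the median size of the log2 fold change, whichever its sign, was 0.0915 beside a median SE of 0.122.

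The intervals say how large a shared effect these libraries would still allow. In 13240 genes (72.5%) the 95% interval of the fold change lay wholly within 1.5-fold in either direction, and in 16251 genes (89.0%) within 2-fold. This depended on the level of the gene: the share within 1.5-fold was 93.7% of the 2135 genes with a mean of 100 CPM or more, 91.7% of the 8138 genes between 10 and 100 CPM, 65.2% of the 5502 genes between 1 and 10 CPM and 7.83% of the 2479 genes below 1 CPM. For the remaining genes, most of them below 10 CPM, the interval still allowed a shared difference of 1.5-fold or more at this depth and number of libraries.

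**Figure D1:**
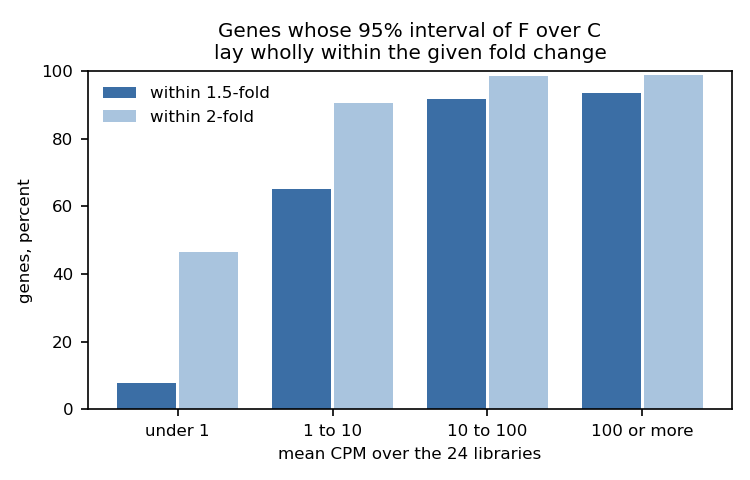
Percent of tested genes (y axis) whose 95% interval of the F over C fold change over T2 to T5 lay wholly within 1.5-fold (dark bars) or within 2-fold (light bars), by mean CPM over the 24 libraries (x axis). The dark bars go from 7.83% below 1 CPM to 93.7% at 100 CPM or more.

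The smallest p of all belonged to a gene higher in F, which the sources used here do not name, with a log2 fold change of 0.24 (95% interval 0.13 to 0.35) and means of 83.3 CPM in C and 97.0 CPM in F. Among genes lower in F, VIT_02s0025g03440 had the smallest p (log2 fold change -1.11, 95% interval -1.65 to -0.57), at a mean of 0.787 CPM in C and 0.336 CPM in F. It lay at 0.271, 0.305 and 0.468 CPM in C and 0.170, 0.345 and 0.544 CPM in F at T2, where the groups overlapped. At T5 it lay at 1.42, 1.35 and 1.39 CPM in C and 0.339, 0.361 and 0.365 CPM in F, and there, as at T3 and T4, every F library was below every C library. VIT_05s0094g00940 followed with a log2 fold change of -0.20 (means 27.8 and 24.2 CPM). Both had an adjusted p of 0.765 (edgeR), were chosen after their values were seen, and are not named by the sources used here.

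Of the variance of log2 values over the 24 libraries, averaged over genes, time point accounted for 59.2%, flooding for 1.96%, the combination of both for 7.25% and libraries of one group for 31.6%. In the 24 H and FH libraries of the same dates the same shares were 43.9%, 2.72%, 10.2% and 43.2%. The flooding share has 1 of 23 degrees of freedom and the combination 3. Spread among libraries alone gives each term a share that grows with its degrees of freedom. The values are therefore a description of where the libraries differed and do not measure an effect of flooding.

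To see what became of the large F over C difference at T1, the genes called at T1 were followed at the later dates. At T0 4 of 18518 genes (0.0216%) were called, all higher in F and all called higher again at T1; the sources used here give them no names. At T1 the 3 F and 3 C libraries, fitted with those of T0, differed in 4385 of 18518 genes (23.7%), 1734 higher (9.36%) and 2651 lower (14.3%) in F; these values chose the genes and are a description. The libraries of T2 to T5 are other libraries than those of T1, so the later values are independent of the choice.

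The 1734 genes higher in F at T1 had a median log2 fold change of 0.94 there, which shrank to 0.06, 0.14, -0.07 and 0.13 on the 4 later dates in turn. In the shared comparison their median was 0.0708, beside 0.00106 over all genes; 72.7% of them were above 0, beside 50.3% of all genes, and 7.61% had an unadjusted p under 0.05, beside 6.15%. The 2651 genes lower in F at T1, of which 2346 were tested later, had a median of -1.28 at T1 and of -0.22, -0.35, 0.10 and -0.10 from T2 to T5. Their shared median was -0.137, with 76.0% below 0 and 6.35% at an unadjusted p under 0.05. At T4 the medians of both groups of genes had the sign opposite to that at T1.

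The departure of T1 from the later dates was tested over all genes, in the 30 C and F libraries of T1 to T5. The F over C difference at T1 departed from the mean of those at T2 to T5 in 2705 of 18761 genes (14.4%) at an adjusted p under 0.05.

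**Figure D2:**
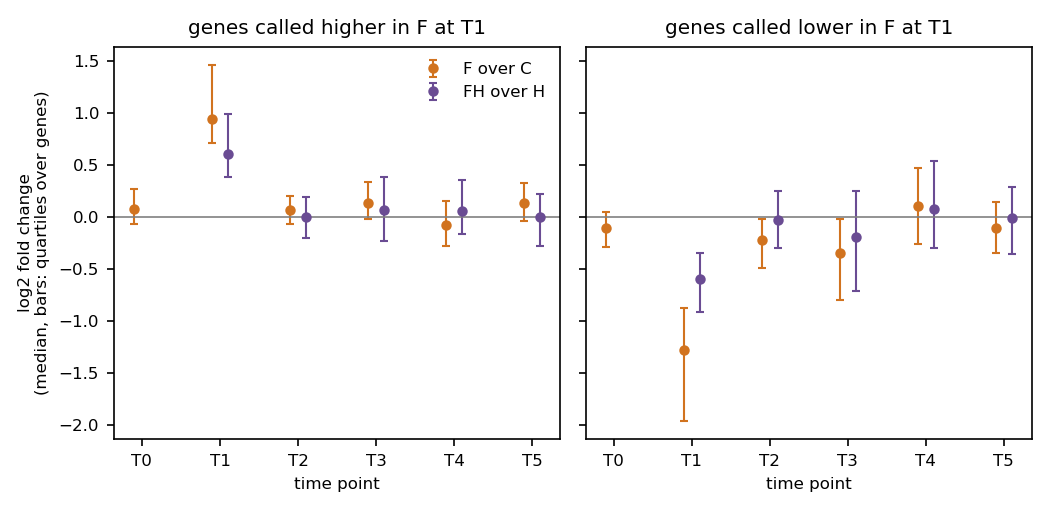
Median log2 fold change (points, y axis) with quartiles over genes (bars) at each time point (x axis), for genes called higher (left) or lower (right) in F at T1. F over C goes from 0.94 at T1 to between -0.07 and 0.14 at T2 to T5 in the first group and from -1.28 to between -0.35 and 0.10 in the second; FH over H is set beside it.

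The shared medians were smaller without either of 2 early C libraries. Without T2 C replicate 1 the shared medians of the 2 groups of genes were 0.0345 and -0.0478, and without T3 C replicate 1 they were 0.0461 and -0.0637; without T4 they were 0.115 and -0.228. Without T3 they were 0.0388 and -0.0688, and without T5 the first was 0.0459. With the ripening score of each library, described below, as a covariate they were 0.0529 and -0.0459. The score of a library was computed from its own expression, and 6841 of the 18254 tested genes entered it. Values nearer 0 in that fit may therefore come from the adjustment itself. With only the genes of at least 5 CPM in at least 12 libraries the second median was -0.0879.

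Across the 17571 genes fitted in both, the F over C log2 fold changes at T1 and those shared by T2 to T5 had a Pearson correlation of 0.392 (Spearman 0.340), and 0.551 (0.587) over the 4080 genes called at T1. Genes are not independent of each other, and no p is given. From date to date 33.5% of genes had the same sign at T3 and T4 (correlation -0.311), and between 47.1% (T2 and T4) and 58.7% (T2 and T3, correlation 0.266) for the other pairs of dates. Over all of them, 12.1% of all genes kept one sign at all 4 dates (1045 higher, 1161 lower). Signs unrelated from date to date and even in direction would give a share of about this size.

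In the vines given the summer stress, FH over H over these genes gave medians of 0.61 and -0.60 at T1, when they were in drought and the warming began. edgeR called 0 of 18723 genes in FH over H at T1, with 2337 (12.5%) at an unadjusted p under 0.05 and a smallest adjusted p of 0.154. Over T2 to T5 the medians were 0.0417 and -0.0105, beside 0.0289 over all genes. In FH over H, T2 to T5, 0 of 18156 genes (0%) were called by edgeR, with 856 (4.71%) at an unadjusted p under 0.05 and a smallest adjusted p of 0.329; DESeq2 called 2. The difference between FH over H and F over C was called by edgeR in 0 of 18738 genes (0%; 1466, or 7.82%, at an unadjusted p under 0.05; smallest adjusted p 0.0811), and in 6 by DESeq2.

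Date by date, with one mean per group in the same 24 libraries, edgeR called 0 genes at T2 (538, or 2.95%, at an unadjusted p under 0.05), 0 at T3 (1510, 8.27%), 0 at T4 (1984, 10.9%) and 2, or 0.011%, at T5 (1185, 6.49%). DESeq2 called 1, 4, 29 and 84 genes at these dates. Both genes that edgeR called at T5 were higher in F. VIT_05s0020g02890 stood at 2.35, 2.95 and 1.80 CPM in C and 7.56, 7.49 and 5.02 CPM in F, a log2 fold change of 1.49 (SE 0.227; edgeR adjusted p = 0.0242). VIT_04s0008g04710 stood at 27.2, 23.7 and 19.1 CPM in C and 56.2, 59.4 and 50.3 CPM in F, a log2 fold change of 1.24 (SE 0.180; edgeR adjusted p = 0.0242).

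In both genes the 3 F libraries lay above the 3 C libraries at T5 and the groups overlapped at T2, T3 and T4. VIT_04s0008g04710 had been at 217, 173 and 178 CPM in C at T2 and VIT_05s0020g02890 at 21.0, 22.4 and 18.2 CPM, so that both were far lower in C at T5 than at T2. With T5 F replicates 1 and 2 summed, edgeR called 0 genes at T5 (smallest adjusted p 0.185) and DESeq2 20 in place of 84. Leaving out any C library of T5, or either of these F libraries, also left 0; leaving out T5 F replicate 3 gave 8, and leaving out T3 F replicate 1, T3 F replicate 3 or T4 F replicate 3 gave 10. F and C libraries did not overlap in 22.7% of all genes at T5, beside 6.24%, 9.30% and 14.8% at the earlier dates in order. With 3 libraries against 3, a share of 0.1 of the relabellings leaves groups without overlap. The share at T5 counts F replicates 1 and 2 as separate libraries.

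A change of the F over C difference among T2, T3, T4 and T5 was tested with the interaction of flooding and date (3 degrees of freedom). edgeR called 0 of 18254 genes (0%), with 1527 (8.37%) at an unadjusted p under 0.05 and a smallest adjusted p of 0.570, and DESeq2 37. The gene with the smallest interaction p was VIT_04s0008g04710 (7.32e-05).

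Of the 113 genes taken from the study, 97 passed the filter on low counts, and the highest of the other 16 stayed under 1 CPM in each of the 24 libraries. 0 of the 97 were called in the shared comparison, as was the case for all genes. 3 of them, all higher in F, had an unadjusted p under 0.05 (6.15% of all genes did). The median log2 fold change of the 97 was -0.00358, and 25 had a 95% interval within 1.5-fold and 58 within 2-fold. The genes of these lists were chosen by the study on these same libraries, largely from differences at other dates or between other treatments. They are no independent evidence of a direction. F lay wholly above C in 1, 2, 9 and 12 of the 97 genes from T2 to T5 and wholly below it in 0, 2, 6 and 7, and the groups overlapped in all the others. Over all genes the groups did not overlap in 6.24%, 9.30%, 14.8% and 22.7% at these dates.

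GOLS4 had the clearest value of the listed stress genes. Its level was 36.2, 192 and 98.0 CPM in C and 123, 172 and 92.9 CPM in F at T2, and 78.4, 202 and 108 CPM in C and 207, 138 and 243 CPM in F at T3. It was 226, 155 and 153 CPM in C and 163, 187 and 340 CPM in F at T4, and 102, 77.7 and 128 CPM in C and 175, 176 and 140 CPM in F at T5. Only at T5 did all F libraries lie above all C libraries.

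The shared log2 fold change of GOLS4 was 0.47 (SE 0.208, 95% interval 0.04 to 0.90, a fold change of 1.39), with an unadjusted p of 0.0348 and an adjusted p of 0.796 (edgeR). It was above 0 at each date, at 0.24, 0.60, 0.37 and 0.67, and between 0.391 and 0.622 when any one library was left out. Above 0 at each date were 8 of the 97 listed genes, GOLS4 among them, and 1045 of all 18254 genes. At T1 the value of GOLS4 had been 1.95, with 23.8, 20.2 and 20.4 CPM in C against 102, 81.2 and 67.6 CPM in F. In FH over H, which shares no library with F over C, the shared log2 fold change was 0.77 (SE 0.290, adjusted p 0.916), with values of -0.65, 1.93, 1.10 and 0.68 from T2 to T5.

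The other 5 genes of heat and osmoprotection were also above 0, with a list median of 0.22, and none had an unadjusted p under 0.05. At T1 the list median had been 0.09. HSP101, a chaperone that dissolves protein aggregates after heat, had a log2 fold change of 0.41 with a wide interval, -0.60 to 1.42. Its values were -0.48, 0.99, 1.65 and -0.51 from T2 to T5, and at T1 it had been called lower in F (-1.35, edgeR adjusted p 0.0177). It varied strongly among replicates, from 19.5 to 1010 CPM in F and from 60.1 to 520 CPM in C at T3. The 4 genes of trehalose metabolism, in which trehalose-6-phosphate signals sugar status, ranged from 0.06 to 0.23.

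Of the ABA genes, NCED5, one of the 9-cis-epoxycarotenoid dioxygenases that commit carotenoids to ABA, came closest to a shared difference. It stood at 82.0, 169 and 154 CPM in C and 111, 267 and 148 CPM in F at T2, and had dropped to 9.10, 21.5 and 18.5 CPM in C and 13.8, 19.8 and 39.8 CPM in F at T4, with the groups overlapping at both dates. The shared log2 fold change was 0.43 (95% interval -0.02 to 0.88, edgeR adjusted p 0.80), with 0.36, 0.48, 0.58 and 0.29 from T2 to T5 and 2.26 at T1. In FH over H it was -0.04.

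NCED3 and NCED4, of the same family, had shared log2 fold changes of 0.03 and 0.17, and NCED6 one of -0.18 at under 1 CPM. CYP707A3, the ABA 8'-hydroxylase that begins ABA breakdown, had 0.13. 4 of the 5 ABA genes lay above 0, with a median of 0.13; 3 of the 4 fitted at T1 had been called there, all higher in F, as were 9.36% of all genes.

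**Figure D3:**
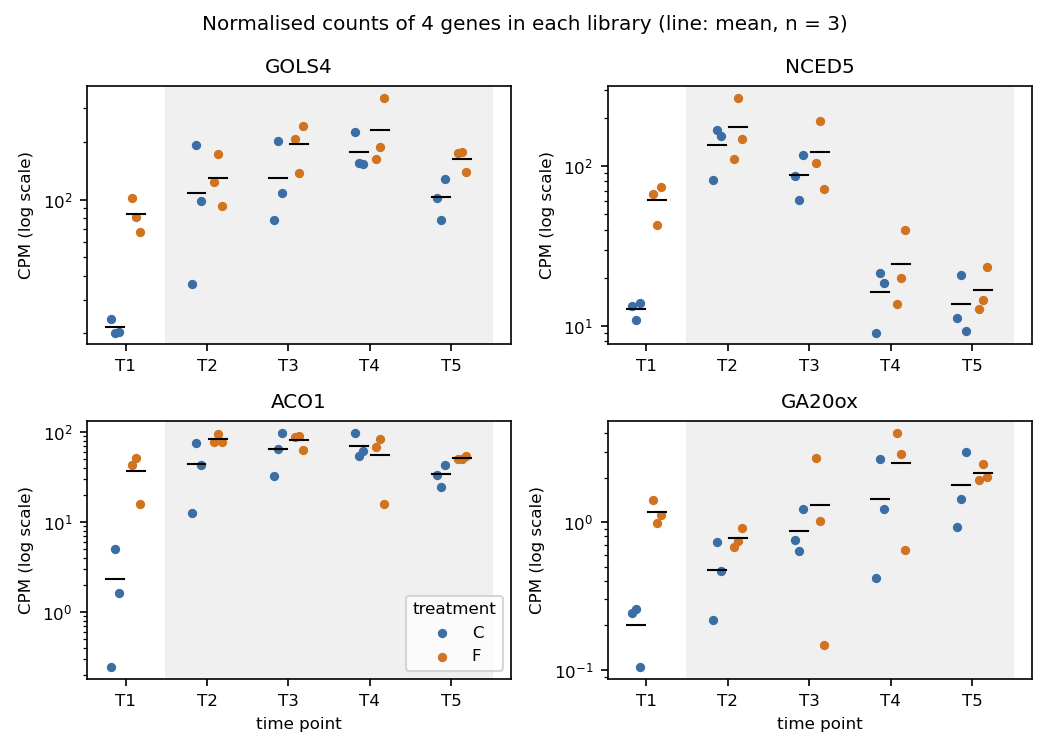
CPM of GOLS4, NCED5, ACO1 and GA20ox in each C and F library (points; log axis) at T1 to T5, with the mean of 3 libraries (line); T2 to T5 are shaded. Every F point lies above the C points at T1 in all 4 genes, and at the later dates the groups overlap except for GOLS4 at T5 and ACO1 at T2 and T5.

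In the ethylene list 0 of the 5 genes had an unadjusted p under 0.05 in the shared comparison. ACO1, an ACC oxidase, which carries out the last step of ethylene synthesis, stood at 0.243, 5.09 and 1.62 CPM in C and 43.3, 51.5 and 15.8 CPM in F at T1, a log2 fold change of 3.98. At T2 it was at 12.7, 76.1 and 43.3 CPM in C and 78.8, 96.7 and 77.7 CPM in F, where every F library was above every C library by a small margin, and at T3 and T4 the groups overlapped. At T5 it was at 33.7, 24.8 and 43.5 CPM in C and 50.4, 50.2 and 54.2 CPM in F, again without overlap.

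The shared log2 fold change of ACO1 was 0.37 (95% interval -0.17 to 0.91), with 0.93, 0.31, -0.35 and 0.60 from T2 to T5. The ACC synthase VIT_02s0025g00360, which makes the precursor of ethylene, had 0.46 (-0.11 to 1.03), the largest of the ethylene list. At T1 it had been called lower in F (-0.96, edgeR adjusted p 0.0387). In FH over H its shared log2 fold change was -0.92 (edgeR adjusted p 0.916).

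ACO3, also an ACC oxidase, had a shared log2 fold change of -0.17 (95% interval -1.11 to 0.77), with -1.29 at T3 and 1.97 at T4. The 5 ethylene genes had a median of 0.37 and 0 of them an interval within 1.5-fold. Of the 4 fitted at T1, 1 had been called higher and 1 lower in F there, as were 9.36% and 14.3% of all genes.

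Of the auxin signalling list 17 of 18 genes were called at T1, all lower in F (14.3% of all genes were), with a median of -1.83. Most of these genes were named by the study for being lower in F at T1 in these same libraries. That count followed from the choice and is a description. In the shared comparison 14 of the 17 tested genes were below 0, with a median of -0.268, and 0 had an unadjusted p under 0.05. The median was 0.00106 over all genes. Of all genes called lower in F at T1, 76% were below 0, with a median of -0.137. From T2 to T5 the list medians were -0.184, -0.0079, -0.0113 and -0.284. 7 of the 17 intervals lay within 1.5-fold.

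Its members include auxin response factors (ARF), which bind auxin-responsive promoters, the Aux/IAA proteins that repress them, and auxin efflux carriers. Among the ARF genes, VIT_06s0004g03130 went from 102, 71.9 and 64.5 CPM in C and 7.66, 5.48 and 16.1 CPM in F at T1 to 2.84, 4.42 and 3.77 CPM in C and 3.97, 3.52 and 3.24 CPM in F at T5. The groups were apart at T1 and overlapped at T5, where the level was low in C too. Its shared log2 fold change was -0.23 (95% interval -0.75 to 0.29), beside -3.03 at T1.

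At T2 the same gene was at 25.3, 7.20 and 4.39 CPM in C, the first of which was T2 C replicate 1. Without that library the list median was -0.0445, without T3 C replicate 1 it was -0.124, and without T2 as a whole -0.13. With the ripening score as a covariate, computed from the expression of the same libraries, it was -0.0739. Over genes of at least 5 CPM in at least 12 libraries it was -0.0792. The member with the largest shared value was the Aux/IAA gene VIT_14s0030g02310 (-0.79, 95% interval -1.97 to 0.40), at about 1 CPM, and it was -0.235 without T2 C replicate 1.

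**Figure D4:**
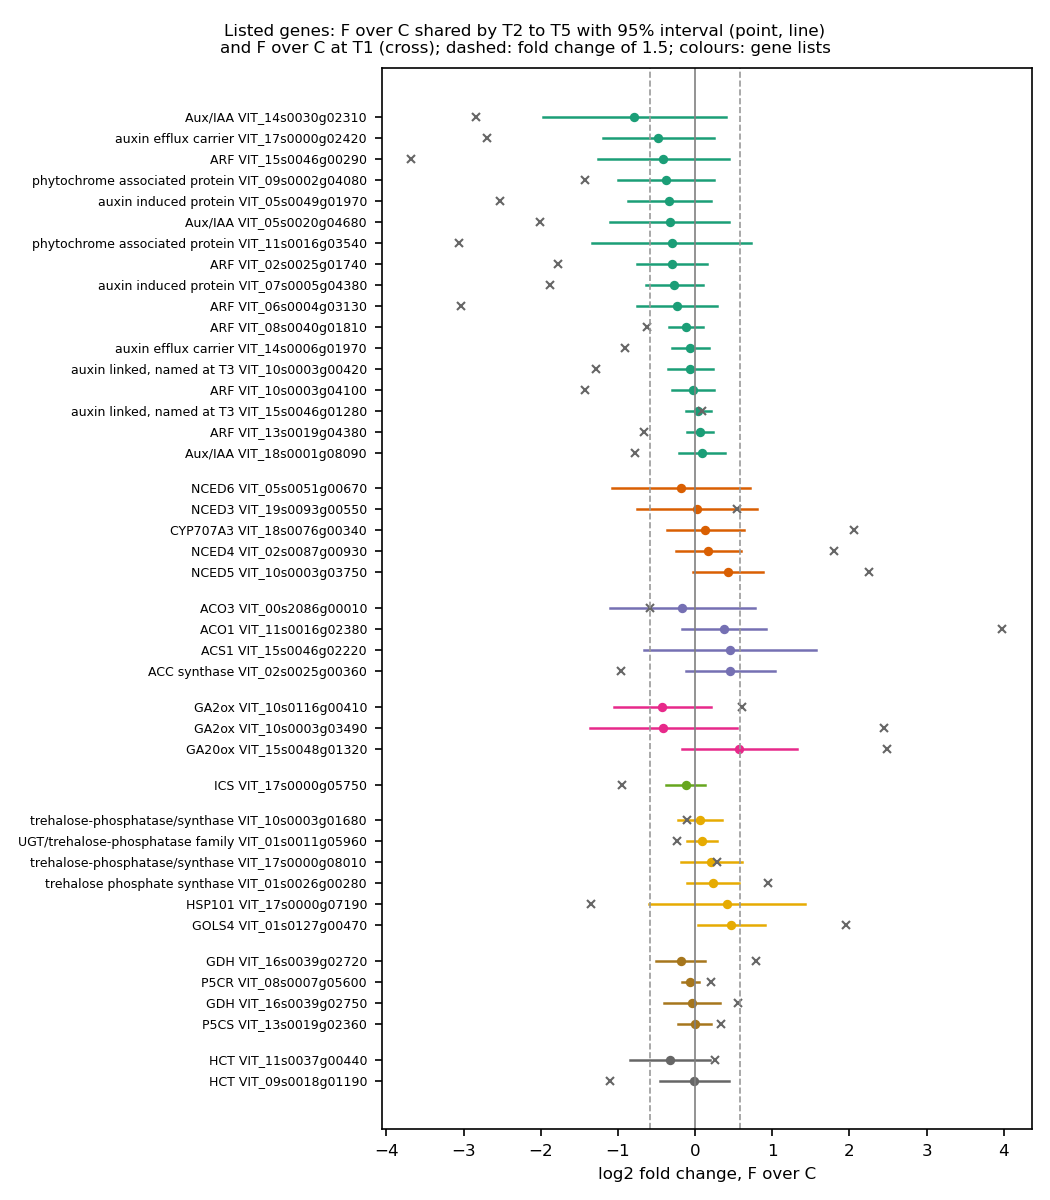
Shared log2 fold change of F over C at T2 to T5 (points, x axis) with 95% intervals (lines) for genes of 8 lists (rows, coloured by list), and the value at T1 (crosses). The auxin genes at the top have crosses as far as -3.68 and points between -0.79 and 0.09, and 1 interval, that of GOLS4, does not include 0.

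In the gibberellin list GA20ox had a log2 fold change of 0.58 (95% interval -0.17 to 1.32), with 0.71, 0.58, 0.79 and 0.27 from T2 to T5, at 0.147 to 4.03 CPM, and the shared value was 0.365 without T3 F replicate 1. The 2 genes for GA2ox, which inactivates gibberellins, had -0.41 and -0.42. The GA20ox value of 2.48 at T1 rested on 0.104 to 0.260 CPM in C and 0.980 to 1.41 CPM in F. ICS, the isochorismate synthase that begins one route to salicylic acid, had -0.12 with an interval of -0.38 to 0.13, within 1.5-fold, after -0.94 at T1. It was -0.0679 without T2 C replicate 1 and -0.215 without T4 F replicate 3.

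In the proline and glutamate list all 4 genes had intervals within 1.5-fold. P5CS, the first enzyme of proline synthesis from glutamate, had -0.00358 (-0.22 to 0.21) and P5CR, the last, -0.06 (-0.17 to 0.05). The 2 genes for glutamate dehydrogenase, GDH, had -0.04 and -0.19, the second -0.0986 without T4 C replicate 3. The 2 HCT genes (hydroxycinnamoyl transferase, on the way to chlorogenic acid) had -0.01 and -0.33, the second -0.492 without T2 F replicate 2.

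The genes that the study placed in networks around ABA, 2-isopentenyladenine (a cytokinin) and salicylic acid mostly had wide intervals. The largest value in the ABA network was 0.58 (a matrix metalloproteinase, VIT_01s0026g00900, with 0.245 without T4 F replicate 3 and 0.945 without T2 C replicate 3). In the cytokinin network it was -0.59 (a ribosomal protein, VIT_00s0873g00010, at 0.0451 to 1.23 CPM in the 24 libraries). In the salicylic acid networks it was 1.09 for the transcription factor VIT_16s0100g00380 and 0.26 for VIT_06s0004g04610 of the cell wall group (0.157 without T4 F replicate 3). For VIT_19s0015g00620 of the plasma membrane group it was -0.87, at 0 to 0.802 CPM. With 7, 5, 11, 11 and 6 genes tested in these 5 lists (1 gene is in both of the last), none had an unadjusted p under 0.05 and 1 had an interval within 1.5-fold. At T4 alone DESeq2 called VIT_18s0001g15720 of the plasma membrane group higher in F (log2 fold change 3.59, adjusted p 0.0292), and VIT_04s0023g02480, a qPCR target described below, lower (-3.67, adjusted p 0.0292), and edgeR called neither.

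In VIT_16s0100g00380 a single library stood out, with 0.240, 0.737 and 5.76 CPM in F at T4, the last being T4 F replicate 3, and 0.0526 to 0.250 CPM in C. Without that library the shared value was 0.554. The sign of DEWAX (VIT_16s0013g01000), a regulator known in Arabidopsis to lower cuticular wax synthesis, rested on the same library: its shared log2 fold change was 0.22, and -0.16 without T4 F replicate 3.

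The 5 qPCR reference genes, which the study picked for stability on these data, all had intervals within 1.5-fold, but all 5 lay above 0, with a median of 0.127, and 2 had an unadjusted p under 0.05. VIT_10s0003g00990 was at 351, 359 and 361 CPM in C and 478, 459 and 433 CPM in F at T5, and had a shared log2 fold change of 0.21 (95% interval 0.06 to 0.36, edgeR adjusted p 0.768), and VIT_13s0019g04720 one of 0.15 (0.04 to 0.26). Among the 2135 genes of 100 CPM or more the median log2 fold change was 0.0584. Of the 13 target genes the largest value was that of VIT_04s0023g02480 (-0.67, 95% interval -1.82 to 0.47), with T4 C replicate 2 at 51.7 CPM beside 7.21 and 1.55 CPM in the other C libraries of T4; without that library it was -0.148, and without T4 0.228.

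Whether F and C berries were at the same stage was asked with a ripening score. It was built only from H and FH libraries, on 7203 genes that differed between T1 and the dates T4 and T5 (3004 rose, 4199 fell). It was scaled so that the mean of these vines was 0 at T1 and 1 at T4 and T5. These vines were in drought at T1 and past the heatwave at T4 and T5, so the score does not separate ripening from that change. At T1 the score was -0.178, -0.097 and -0.083 in C and 0.294, 0.475 and 0.279 in F, and the groups were 0.469 apart on average with no overlap. A two-sided exact permutation test gave p = 0.1, which is as low as 3 against 3 can go.

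The groups overlapped at every later date. At T2 the score was 0.119, 0.702 and 0.414 in C and 0.366, 0.518 and 0.607 in F, and at T3 0.359, 0.863 and 0.739 in C and 0.897, 0.731 and 0.819 in F. At T4 it was 1.05, 0.985 and 1.05 in C and 1.04, 0.966 and 0.768 in F, and at T5 1.14, 1.10 and 1.14 in C and 1.14, 1.15 and 1.11 in F. The lowest score of its group was that of T2 C replicate 1, of T3 C replicate 1 and of T4 F replicate 3, the 3 libraries named above.

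F minus C was 0.0853, 0.162, -0.103 and 0.00313 from T2 to T5, and 0.0369 on average. An exact permutation test over the 160000 relabellings within dates gave p = 0.574 (two-sided, n = 12 in each group). Without T2 C replicate 1 the average was 0.000278, without T3 C replicate 1 it was 3.33e-05, and without T2 C replicate 2 it was 0.0732, the highest. In the fits with the score as a covariate edgeR called 0 genes (smallest adjusted p 0.440, with 8.10% at an unadjusted p under 0.05). Each library's score was computed from its own expression, so these fits cannot separate stage from flooding. The part of the spread in stage within groups in the single-gene results was not tested further.

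**Figure D5:**
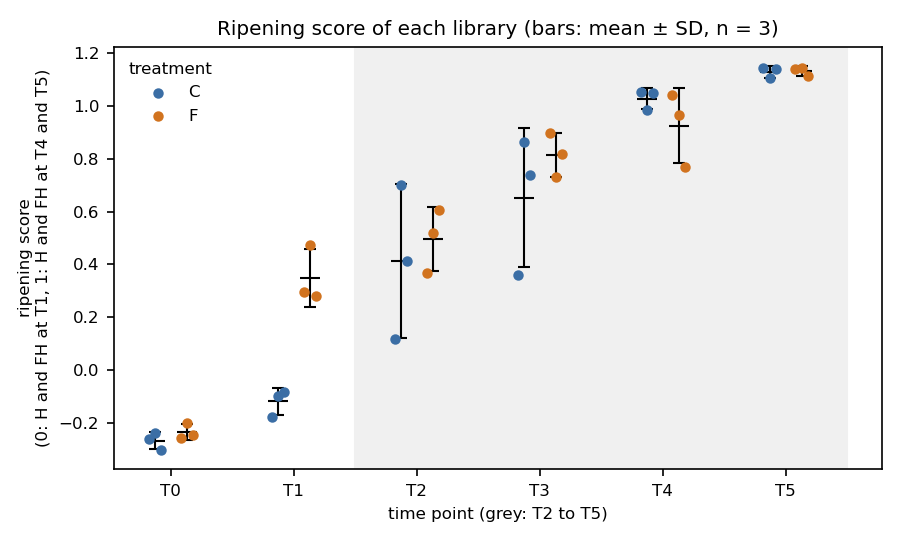
Ripening score of each C and F library (points; y axis, 0 for H and FH at T1 and 1 for H and FH at T4 and T5) by time point (x axis), with mean and SD of 3 libraries; T2 to T5 are shaded. F is above C at T1 by 0.469 on average and the groups overlap at each shaded date, with the widest spread in C at T2 and T3.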

How the data were processed

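Berry RNA was sequenced from stranded mRNA libraries. The authors mapped reads to a revised 12X grape genome with TopHat (version not given in the sources used here) and deposited raw counts per gene. The study's methods state untrimmed, uniquely mapped reads counted with Bedtools, whereas the submitters' processing notes list Trimmomatic 0.39 and featureCounts; how reads over overlapping genes were counted therefore stayed unclear. Of 29688 rows, 4348 had no count and 300 shared 149 identifiers. No annotation used here held these identifiers, so coordinates are not given.

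Depth was 17067512 to 24150978 counts in the 24 libraries. Tests used edgeR 4.0.16 (R 4.3.3; TMM, robust quasi-likelihood, Benjamini-Hochberg adjustment) with time point as a block and a minimum of 0.5 CPM in 3 libraries; intervals are 95% Wald intervals from that fit. Variance shares and the score used log2(CPM + 4). DESeq2 1.42.0, other normalisations, filters, designs and left-out libraries were alternatives. The code was tested on simulated counts.

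The groups, gene lists and tests were chosen with earlier results of these data known. By the rule for named genes, the text names the member of each list with the largest log2 fold change and the genes of a count of up to 5 in F over C at T2 to T5; the other genes were chosen after their values were seen. The comparison of T1 with later dates was added after the data were seen. Results of 1 listed gene are not reported here, although counts and medians over lists include it.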

Additional observations from a re-analysis of the deposited data

Results flagged for a closer look

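The F over C difference at T1 departed from the mean of the differences at T2 to T5 in 2705 of 18761 genes at an adjusted p under 0.05 (edgeR, one mean per group, 30 libraries), which is a difference between time points under the same contrast. The count was 2580 with RLE size factors, 2249 with no filter on low counts and 3312 with DESeq2.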

How the results depend on the processing

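The count of 0 genes in the shared comparison held in 40 of 41 alternatives, the exception being DESeq2 with the adjusted p alone (15); the smallest adjusted p outside DESeq2 was 0.315. It held with each of the 24 libraries left out (4.53 to 9.05% of genes then had an unadjusted p below 0.05) and with each date left out. 0 listed genes were called with any library left out. DESeq2 called 1, 4, 29 and 84 genes at T2, T3, T4 and T5, and 1, 4, 28 and 20 with T5 F replicates 1 and 2 summed; edgeR then called 0 at T5. DESeq2 called 34 at T0 in place of 4, 37 for the change between dates, 2 in FH over H and 6 for the difference between FH over H and F over C. With single libraries left out, the counts were 0 to 1 at T4, 0 to 10 at T5, 0 to 1 for the change between dates (1 without T4 F replicate 1, as at T4), 0 to 1 for the difference between FH over H and F over C (1 without T2 C replicate 3, T2 H replicate 1 or 2, T2 FH replicate 3, T2 F replicate 1 or T4 F replicate 2), 1 to 5 at T0 and 3385 to 4399 at T1. The flooding share of variance was 1.58% over the 5000 most variable genes and 1.81 to 2.50% with libraries left out, and the score difference was 3.33e-05 to 0.0732.

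Replicate numbers did not pair the libraries: deviations of same-numbered C and F libraries had correlations of -0.425 to 0.733 (median 0.0354, 5 of 12 pairs over 0.1), and 3 of 12 C libraries correlated best with their own number; at T2 alone the 3 pairs were at 0.195 to 0.733. With the replicate block edgeR called 0 genes in the shared comparison, 0, 0, 0 and 3 at T2 to T5 in place of 0, 0, 0 and 2, and 0 in FH over H, the score gave p = 0.593 by an exact test of sign flips, and the auxin list median was -0.127.

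Of the 16 listed genes with the largest value of their list, 13 kept their sign in every alternative. Without T4, DEWAX (VIT_16s0013g01000) was at -0.335, VIT_06s0004g04610 at -0.00219 and VIT_04s0023g02480 at 0.228; DEWAX was at -0.161 to 0.503 with libraries left out. The causes were not tested. Genes below 1 CPM were bounded only loosely, and 3 libraries per group and date limited the single-date tests.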
